A study of Mus musculus with 12 samples.

Results

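The hepatocyte growth factor and fibroblast growth factor genes of mouse mesenchymal stem cells (MSCs) were taken from the gene expression table by symbol. They were 10 of the 55401 genes listed: the ligand genes Hgf, Fgf2, Fgf7, Fgf10, Fgf18 and Fgf21 and the receptor genes Met, Fgfr1, Fgfr2 and Fgfr3. The RNA came from purchased bone marrow MSCs of C57BL/6 mice, with 3 libraries in each of 4 groups. The untreated group was cultured without TGF-β1, and the other groups received TGF-β1 at 5 ng/mL for a day, either alone, in culture supernatant of monocytic myeloid-derived suppressor cells (TGF-β1/M-MDSC supernatant) or in supernatant of granulocytic ones (TGF-β1/G-MDSC supernatant). The MDSCs had been raised from bone marrow with GM-CSF and IL-6 and sorted as CD11b+Ly6G-Ly6C high (M-MDSC) or CD11b+Ly6G+Ly6C low (G-MDSC). None of the 4 groups received supernatant without TGF-β1, and none received TGF-β1 in MDSC medium that had held no cells. The labels do not say whether the 3 libraries of a group came from separate cultures, so p-values measure the spread between these libraries, which may be technical.

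Growth factors of these families are secreted by stromal cells and act on neighbouring cells, and several are counted among the paracrine factors of MSCs. HGF, made largely by mesenchymal cells, binds the receptor tyrosine kinase MET, which epithelial cells carry. FGFs bind FGF receptors together with heparan sulfate on the cell surface, except for the endocrine members such as FGF21, which need a Klotho co-receptor instead. TGF-β1 drives MSCs and fibroblasts towards the myofibroblast state, whereas HGF and several FGFs are known for antagonising it.

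The libraries held 73977669 to 84565450 counts. Levels are given as FPKM, that is, fragments scaled by transcript length and library size, and as mean ± SD with n = 3. A gene was tested when 3 or more of the 12 libraries had an FPKM of 1 or higher, which left 12016 genes, and it was called at an adjusted p-value under 0.05 in edgeR's quasi-likelihood F test with Benjamini-Hochberg adjustment over all genes tested. Of the 10 genes, 6 passed this filter. Fgf21 was among them only through the 9 libraries with TGF-β1. Fgf2, Fgf18, Fgfr2 and Fgfr3 did not pass, and their tests come from a fit of 18761 genes kept by a filter on counts. TGF-β1 alone raised Ccn2, Col1a1 and Acta2, known targets of this factor, by 2.53, 1.11 and 0.53 on the log2 scale. Of the MSC markers, Itgb1 and Cd44 were abundant in every library, Eng stayed under 1 FPKM, and Ly6a, the gene of Sca-1, had 24803 to 27320 counts untreated, 1430 to 2023 with TGF-β1 and 7192 to 10752 with supernatant. Endothelial markers summed to at most 0.589 FPKM and 9 hematopoietic and myeloid markers to at most 8.14 FPKM in any library. Of the other MSC markers, Pdgfra had 11837 to 13287 counts untreated and 4110 to 4798 with TGF-β1, Thy1 had 1010 to 1473 and 549 to 651, Nt5e had 237 to 407 and 739 to 821, and Pdgfrb had 15006 to 16794 and 21346 to 22708, so the markers moved in both directions. The 6 epithelial markers summed to 4.83 to 5.32 FPKM untreated, 0.73 to 0.89 with TGF-β1, 0.81 to 1.38 with M-MDSC and 0.734 to 1.53 with G-MDSC supernatant, mostly through Krt19 in the untreated libraries. Krt8 and Cldn4 of the same list went the other way and were higher with TGF-β1 than untreated, both under 1 FPKM.

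The 250 bases before the annotated start of Fgf21, Fgf7 and Fgf10 are shown because, among the genes called with TGF-β1, Fgf21 had the largest rise and Fgf7 and Fgf10 the largest falls. They come from RefSeq, whose starts are used, on GRCm38.p6 and are written on the strand of the gene, with the last base next to the start. The Fgf21 window is chr7:45615491-45615740 on the minus strand, the Fgf7 window chr2:126034408-126034657 on the plus strand and the Fgf10 window chr13:118714449-118714698 on the plus strand. The Fgf10 window lies inside the longer span given below for this gene, whose annotation starts upstream of the RefSeq start.
Fgf21: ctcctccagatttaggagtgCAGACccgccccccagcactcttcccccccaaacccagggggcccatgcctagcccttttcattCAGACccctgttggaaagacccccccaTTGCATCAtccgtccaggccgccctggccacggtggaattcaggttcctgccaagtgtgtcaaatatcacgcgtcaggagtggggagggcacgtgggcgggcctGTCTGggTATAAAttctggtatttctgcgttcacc
Fgf7: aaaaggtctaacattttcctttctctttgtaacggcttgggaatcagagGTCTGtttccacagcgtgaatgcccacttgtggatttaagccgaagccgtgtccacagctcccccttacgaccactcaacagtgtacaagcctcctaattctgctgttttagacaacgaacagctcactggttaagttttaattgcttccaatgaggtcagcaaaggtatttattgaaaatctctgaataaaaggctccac
Fgf10: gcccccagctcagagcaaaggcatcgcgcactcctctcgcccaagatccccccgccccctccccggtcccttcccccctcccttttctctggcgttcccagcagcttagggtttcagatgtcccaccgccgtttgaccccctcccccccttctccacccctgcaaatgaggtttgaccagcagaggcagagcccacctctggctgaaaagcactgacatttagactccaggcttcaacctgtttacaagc
Capitals mark matches on either strand to the C/EBP-ATF response element TGATGNAA and the SMAD-binding box CAGAC, and on the gene strand to the TATA box TATAAA; the AP-1 site TGANTCA was also searched on both strands and none of these windows holds it. The Fgf21 window held 1 C/EBP-ATF element on the opposite strand, 139 bases before the start, a motif found in 3.45% of 32817 promoter windows of the same length. It also held a TATA box 28 bases before the start, found in 7.6% of windows, and 3 SMAD boxes. The Fgf7 window held 1 SMAD box and the Fgf10 window held none, against a share of 42.2% of windows with at least 1. These are matches of letters, and binding was not measured. Of the 10 genes, 9 had a RefSeq window, and Fgfr1 had none.

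In untreated MSCs, Fgf7 was the most highly expressed of the 10 genes, at 35.86 ± 2.44 FPKM (n = 3), followed by Fgfr1 at 25.95 ± 1.55. Fgf10 at 8.896 ± 0.769 and Met at 7.782 ± 0.533 overlapped each other. Hgf stood at 2.449 ± 0.217 and Fgfr2 at 0.9357 ± 0.0777 FPKM. Fgf21, Fgf18 and Fgfr3 were each under 1 FPKM, and Fgf18 overlapped both others, while Fgf21 lay above Fgfr3. In MSCs treated with TGF-β1 the order changed: Fgfr1 came first at 39.99 ± 1.63 FPKM, then Fgf7 at 9.535 ± 0.812 and Fgf21 at 5.046 ± 0.326, with no overlap between these neighbours.

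**Figure D1:**
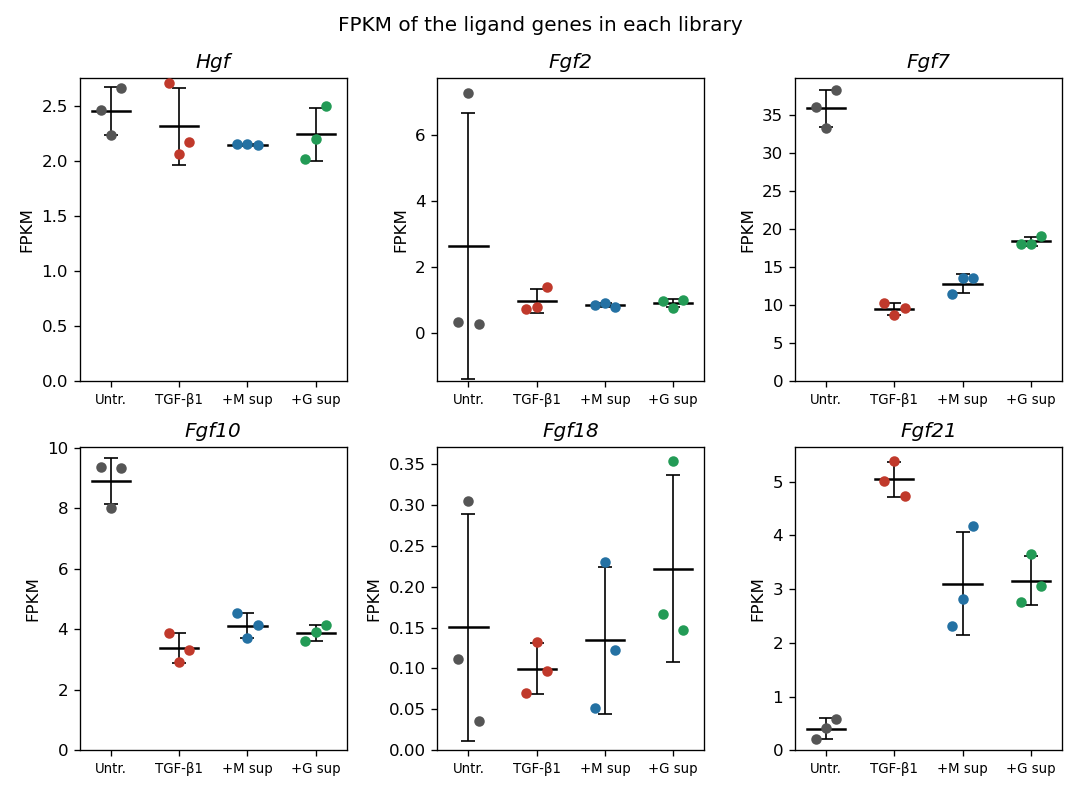
FPKM of the 6 ligand genes in each library, with 1 panel for a gene and its own linear axis. Points are libraries, and bars give the mean and SD of 3 libraries a group (Untr., untreated; +M sup and +G sup, TGF-β1 with M-MDSC or G-MDSC supernatant). Fgf7 and Fgf10 are lower and Fgf21 is higher in all 9 libraries with TGF-β1 than in the 3 without, and 1 untreated library holds 7.29 FPKM of Fgf2.

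The first comparison, of TGF-β1 with no treatment, shows what the differentiation stimulus did to these genes. TGF-β1 lowered the mesenchymal ligands Fgf7 and Fgf10 and the receptor Met and raised the endocrine ligand Fgf21 and the receptor Fgfr1. In these bulk libraries, fewer cells that express a gene and less RNA per cell cannot be told apart. Of the 6 tested genes, 2 were higher and 3 were lower, while 34% of all 12016 genes were called in this comparison (16.1% higher and 17.9% lower). Of the 2 higher genes, Fgf21 passed the filter only through the libraries with TGF-β1, where it was high. In the fit of 18761 genes, where all 10 could be tested, 2 were higher and 4 were lower, against a background of 24.6% (11.4% higher and 13.2% lower). The rule of the study called 4 of the 6, against 6.74% of all genes, and of the 5 genes called at an adjusted p under 0.05 it left out Fgfr1, whose fold was under 2.

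Fgf7, also called keratinocyte growth factor, is a stromal ligand that acts on epithelial cells through an FGFR2 isoform. It held 36, 33.3 and 38.2 FPKM in the untreated libraries and 10.3, 8.7 and 9.59 FPKM with TGF-β1. The groups lay far apart, and Fgf7 fell by 1.85 on the log2 scale (SE 0.085, adjusted p = 5.35e-08, edgeR). In linear terms it fell by 72.3%. The gene lies at chr2:126034658-126091185 on the plus strand of GRCm38.

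Fgf10, the related ligand that directs budding of lung and limb, held 9.35, 8.01 and 9.34 FPKM without treatment and 3.89, 2.91 and 3.31 FPKM with TGF-β1. Every treated library was below every untreated one. The log2 fold change was -1.34 (SE 0.118, adjusted p = 7.24e-06, edgeR), and the gene lies at chr13:118669791-118789334 on the plus strand.

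Fgf21, a hormone of the fasting liver that is also induced under cellular stress, held 0.208, 0.424 and 0.586 FPKM in the untreated libraries, from 17, 38 and 50 counts. With TGF-β1 it held 5.02, 5.38 and 4.73 FPKM, from 429, 468 and 403 counts. It was the only one of the 10 genes that went from under 1 FPKM in all untreated libraries to over 1 in all treated ones, with a log2 fold change of 3.68 (SE 0.345, adjusted p = 1.19e-05, edgeR), or 12.8-fold. The untreated libraries differed among themselves by more than the treated ones in relative terms. Fgf21 lies at chr7:45613886-45615490 on the minus strand. The co-receptor gene for FGF21, Klb, was low in both groups, at 0.03497 ± 0.0193 FPKM without and 0.07102 ± 0.0297 FPKM with TGF-β1, and was not tested.

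Hgf, the ligand of MET, held 2.46, 2.23 and 2.66 FPKM without and 2.71, 2.06 and 2.17 FPKM with TGF-β1. The groups overlapped, and the log2 fold change of -0.025 (SE 0.1145, adjusted p = 0.898, edgeR) was smaller than its error. Hgf lies at chr5:16553495-16620152 on the plus strand.

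Fgf2, basic fibroblast growth factor, held 0.342, 7.29 and 0.265 FPKM without treatment and 0.715, 0.785 and 1.39 FPKM with TGF-β1. Untreated replicate 2 alone carried 4611 counts, against 201 and 165 in the other untreated libraries, and relative to library size its count was 23.6 times their mean and 5.23 times the highest of all other libraries. With it, the log2 fold change was -1.39 (SE 0.959, adjusted p = 0.357, edgeR).
Without it, the log2 fold change of Fgf2 was 1.72 (SE 0.2875, adjusted p = 0.00171, edgeR), so this library decides the direction. The genes that overlap Fgf2 on the opposite strand did not share the excess: Nudt6 had 170, 190 and 113 counts and Fgf2os had 126, 80 and 104 counts in untreated replicates 1, 2 and 3. Whether counting used the strand is not stated. Among genes above a floor on counts, each library had 0 to 4 that stood as far above all other libraries. Untreated replicate 2 had 2, Fgf2 included. Fgf2 lies at chr3:37348346-37410108 on the plus strand.

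Fgf18, a ligand known from cartilage and bone, had few reads, with 4 to 37 counts in any library. It held 0.111, 0.304 and 0.0354 FPKM without and 0.0706, 0.132 and 0.0968 FPKM with TGF-β1. The groups overlapped, and no change was shown (log2 fold change -0.49, SE 0.769, adjusted p = 0.732, edgeR). The gene lies at chr11:33117430-33147400 on the minus strand.

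**Figure D2:**
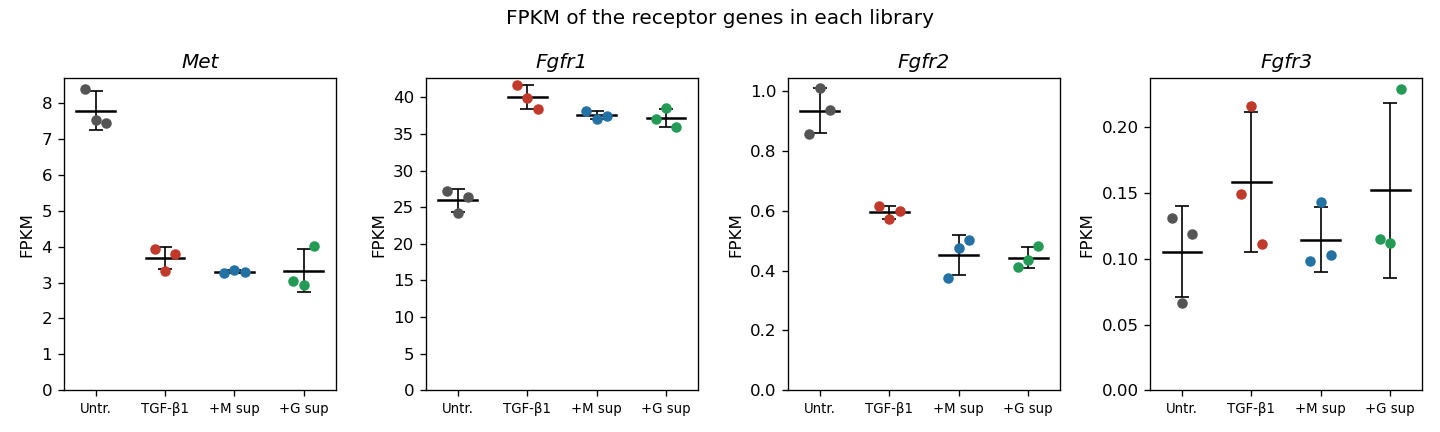
FPKM of the 4 receptor genes in each library, with 1 panel for a gene and its own linear axis. Points are libraries, and bars give the mean and SD of 3 libraries a group (Untr., untreated; +M sup and +G sup, TGF-β1 with M-MDSC or G-MDSC supernatant). Met and Fgfr2 are lower and Fgfr1 is higher in all 9 libraries with TGF-β1 than in the untreated ones.

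Met, the HGF receptor, held 8.4, 7.52 and 7.43 FPKM in untreated MSCs and 3.93, 3.33 and 3.79 FPKM with TGF-β1. The ranges did not overlap, and Met fell by 1.02 on the log2 scale (SE 0.112, adjusted p = 4.07e-05, edgeR). In linear terms it fell by 50.7%. Thus the receptor gene fell while the change of its ligand gene Hgf stayed within its error. The summed epithelial markers were also lower with TGF-β1, as given above, through Krt19, with 778 to 879 counts untreated and 15 to 63 with TGF-β1. Krt8 (4 to 16 and 28 to 38 counts) and Cldn4 (0 and 27 to 36 counts) went the other way, and the ranges of Krt18 overlapped. Epcam had 0 to 8 and Cdh1 0 to 4 counts in the untreated and TGF-β1 libraries. The part of epithelial RNA in the fall of Met was not tested. Met lies at chr6:17463800-17573980 on the plus strand.

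Fgfr1, the main FGF receptor of mesenchymal cells, was the most highly expressed receptor gene of the 4 and held 27.2, 24.2 and 26.4 FPKM without and 41.7, 39.9 and 38.4 FPKM with TGF-β1. Each treated library exceeded each untreated one. The rise was 0.68 on the log2 scale (SE 0.047, adjusted p = 1.17e-06, edgeR), or 1.60-fold. Fgfr1 lies at chr8:25513654-25575718 on the plus strand.

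Fgfr2, whose epithelial isoform is the receptor for FGF7 and FGF10, held 0.858, 1.01 and 0.936 FPKM without and 0.616, 0.572 and 0.598 FPKM with TGF-β1. All treated libraries were lower, and the log2 fold change was -0.59 (SE 0.121, adjusted p = 0.00412, edgeR, fit of 18761 genes). Its annotated span, chr7:130162451-133123350 on the minus strand, overlaps other genes, and the counting method for shared reads is not stated. Fgfr3, a receptor known for restraining bone growth, held 0.131, 0.0662 and 0.119 FPKM without and 0.149, 0.216 and 0.111 FPKM with TGF-β1. These ranges overlapped, with a log2 fold change of 0.64 (SE 0.370, adjusted p = 0.267, edgeR), and the gene lies at chr5:33721674-33737068 on the plus strand.

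**Figure D3:**
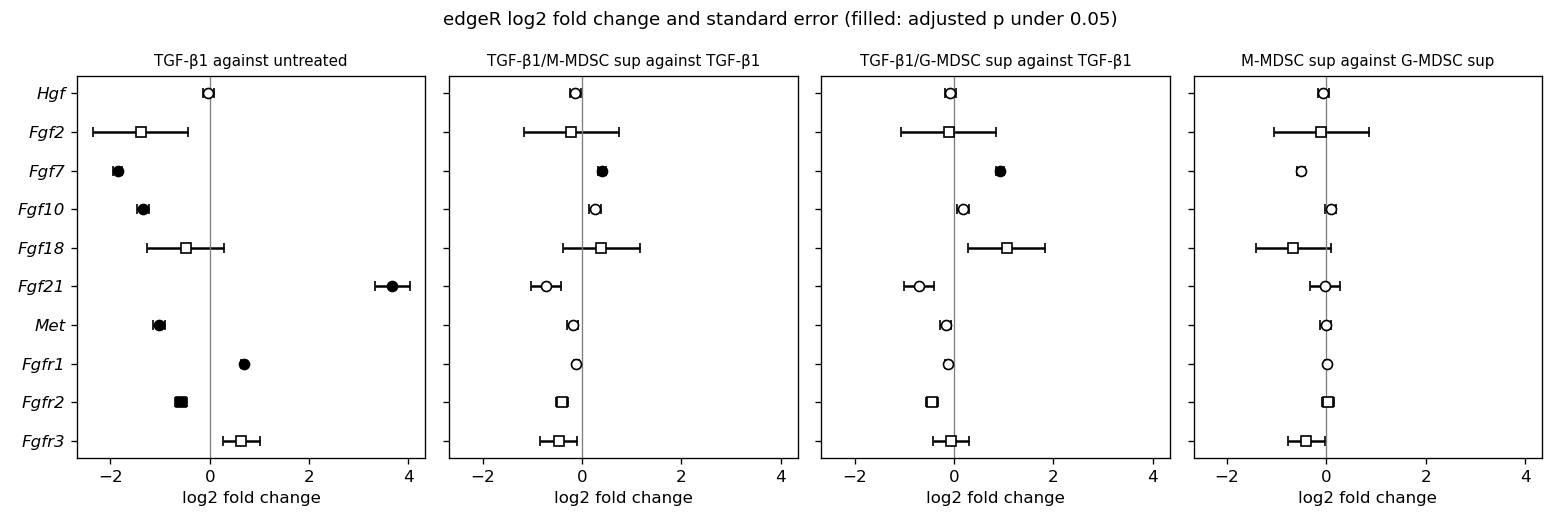
Log2 fold changes from edgeR for the 10 genes in 4 comparisons, with bars of 1 standard error on each side and a shared axis. Circles are genes in the fit of 12016 genes and squares are genes in the fit of 18761, and filled symbols mark an adjusted p-value under 0.05. Fgf7 is the only gene filled in each of the first 3 panels, and the panel of M-MDSC against G-MDSC supernatant holds none.

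The next comparisons, of each supernatant with TGF-β1 alone, address what MDSC supernatant changed in MSCs that also received TGF-β1. The paper names RPMI medium for the MDSCs and DMEM for the MSCs. The medium of the supernatant and the products of the MDSCs therefore cannot be told apart. Fgf7 was the only called gene of the 6 tested with either supernatant, and it was higher with both. For M-MDSC supernatant, 1 gene was higher and none lower, against 4.78% of all genes called (2.83% higher and 1.95% lower). For G-MDSC supernatant, 1 gene was also higher and none lower, against 5.56% of all genes (3.1% higher and 2.46% lower). At an unadjusted p-value under 0.05, 4 and 3 of the 6 genes passed, against 16.7% and 17.2% of all genes. Under the rule of the study, a fold above 2 or below 0.5 with an unadjusted p under 0.05, 0 of the 6 were called with either supernatant (2.18% and 2.17% of all genes).

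Fgf7 held 11.4, 13.6 and 13.5 FPKM with TGF-β1/M-MDSC supernatant, compared with 10.3, 8.7 and 9.59 FPKM with TGF-β1 alone. The log2 fold change was 0.40 (SE 0.083, adjusted p = 0.0185, edgeR), a rise of 32.3%. The call changed with single libraries, and the log2 fold change spanned 0.34 to 0.48 with each library left out in turn. In edgeR the adjusted p was 0.0801 without TGF-β1 replicate 2, 0.0767 without TGF-β1/M-MDSC replicate 2 and 0.0777 without TGF-β1/M-MDSC replicate 3. It was 0.0893 with only the compared groups in the fit. The log2 fold changes in these fits were 0.34, 0.36, 0.37 and 0.42. Over all settings the adjusted p ranged from 0.000224 to 0.0893.

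With TGF-β1/G-MDSC supernatant, Fgf7 held 18, 18 and 19.1 FPKM. These libraries lay above all with TGF-β1 alone and below all untreated ones, and the log2 fold change from TGF-β1 alone was 0.92 (SE 0.083, adjusted p = 5.84e-05, edgeR), a rise of 89.1%. Against untreated MSCs, Fgf7 was still lower by -0.93 with G-MDSC supernatant (adjusted p = 8.46e-06) and by -1.45 with M-MDSC supernatant (adjusted p = 3.29e-07) on the log2 scale in edgeR.

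The other genes had smaller differences or larger errors. Fgf21 held 2.31, 2.82 and 4.17 FPKM with TGF-β1/M-MDSC supernatant and 2.77, 3.65 and 3.06 FPKM with TGF-β1/G-MDSC supernatant, in both groups below the 4.73 to 5.38 FPKM of TGF-β1 alone. Its log2 fold changes of -0.73 (SE 0.303, adjusted p = 0.255) and -0.70 (SE 0.303, adjusted p = 0.263) did not pass in edgeR. Fgfr2 stood at 0.376, 0.477 and 0.501 FPKM with M-MDSC supernatant and 0.412, 0.437 and 0.482 FPKM with G-MDSC supernatant, below TGF-β1 alone, with adjusted p-values of 0.124 and 0.0748 in edgeR. DESeq2 called Fgfr2 with G-MDSC supernatant (adjusted p = 0.0202), as did edgeR without TGF-β1/M-MDSC replicate 1 (0.0326).

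Fgfr1 held 37 to 38.1 FPKM with M-MDSC and 36 to 38.5 FPKM with G-MDSC supernatant, and its log2 fold changes were -0.11 (SE 0.047, adjusted p = 0.246) and -0.13 (SE 0.047, adjusted p = 0.163, edgeR). Met held 3.26, 3.34 and 3.3 FPKM and 3.04, 2.94 and 4.01 FPKM, overlapping TGF-β1 alone, with log2 fold changes of -0.18 (SE 0.112) and -0.17 (SE 0.112). Fgf10 held 4.54, 3.7 and 4.13 FPKM and 3.61, 3.91 and 4.13 FPKM, with log2 fold changes of 0.27 (SE 0.116) and 0.18 (SE 0.116). Hgf held 2.15, 2.15 and 2.14 FPKM with M-MDSC and 2.02, 2.2 and 2.5 FPKM with G-MDSC supernatant, inside the range of TGF-β1 alone for M-MDSC and from just below it for G-MDSC supernatant. Adjusted p-values for Met, Fgf10 and Hgf were 0.277 to 0.831 in edgeR, so no difference was shown for them. The remaining Fgf2, Fgf18 and Fgfr3 had adjusted p-values of 0.618 to 0.984 in the fit of 18761 genes.

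RNA typical of other cells was present in libraries with supernatant. Alb, the albumin gene of hepatocytes, had 0 counts in all libraries without supernatant and in TGF-β1/M-MDSC replicates 1 and 2, but 6423 counts in TGF-β1/M-MDSC replicate 3 and 7588, 7039 and 7827 in the TGF-β1/G-MDSC libraries. Summed over 5 hepatocyte markers, the level was 0.0766 to 47.9 FPKM with M-MDSC and 50.9 to 56.2 FPKM with G-MDSC supernatant. Kap, a gene of kidney tubules, had 0 counts without supernatant, 773, 537 and 4246 with M-MDSC and 2474, 3185 and 3010 with G-MDSC supernatant. The 10 kidney markers summed to 29.2 to 30.8 FPKM untreated, 4.69 to 4.83 with TGF-β1, 15.5 to 83 with M-MDSC and 46.8 to 60.9 with G-MDSC supernatant. Most of the untreated sum is Aqp1, with 6801 to 7157 counts. The 9 hematopoietic and myeloid markers summed to 4.61 to 5.39 FPKM untreated, 2.19 to 3.18 with TGF-β1, 4.16 to 6.65 with M-MDSC and 5.55 to 8.14 with G-MDSC supernatant, and they did not move together. Lyz2 had 0 to 23 counts without and 71 to 262 with supernatant, Itgam had 0 to 1 without and 0 to 42 with it, and S100a9 had 0 without and 0 to 160 with it. Ly6g had 152 to 161 counts untreated, 4 to 8 with TGF-β1 and 0 to 18 with supernatant, and the ranges of Cd68 and Csf1r with and without supernatant overlapped.

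Fgf7 and Fgf21 can be read beside these values. TGF-β1/M-MDSC replicates 1 and 2, with 0 Alb counts, held 11.4 and 13.6 FPKM of Fgf7, both above the highest library with TGF-β1 alone, and replicate 3 held 13.5. Replicates 1 and 2 were not free of RNA from other cells, since they had the 773 and 537 Kap counts given above and 214 and 223 counts of Umod, another kidney gene. Fgf21, which hepatocytes express, held 2.31 and 2.82 FPKM in replicates 1 and 2 and 4.17 in replicate 3. The TGF-β1/G-MDSC libraries, with 7039 to 7827 Alb counts, held 2.77, 3.65 and 3.06 FPKM of Fgf21, below that replicate 3. The part of RNA from other cells in the supernatant results was not tested.

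A direct comparison of the supernatants asks whether the MDSC subtypes differed in effect. No gene of the 6 was called by edgeR, against 0.125% of all genes, and 1 gene passed at an unadjusted p-value under 0.05, against 6.33%. That gene was Fgf7, with 11.4 to 13.6 FPKM for M-MDSC and 18 to 19.1 FPKM for G-MDSC supernatant, so the groups did not overlap. Its log2 fold change for M-MDSC minus G-MDSC was -0.51 (SE 0.083, unadjusted p = 8.67e-05, adjusted p = 0.0579, edgeR). DESeq2 and limma on log2(FPKM + 1) called it, with adjusted p-values of 1.11e-05 and 0.0384, and limma on log2(FPKM + 0.1) did not, with 0.0647. Over all settings its adjusted p ranged from 1.11e-05 to 0.171. The call therefore depends on the test, with a similar size of difference in each. For Met, Fgf21 and Fgfr1 the log2 differences were -0.010 (SE 0.112), -0.023 (SE 0.303) and 0.017 (SE 0.047), with no difference shown.

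Compared with untreated MSCs, Met, Fgf7 and Fgf10 were lower and Fgf21 and Fgfr1 were higher in both supernatant groups. These comparisons share the untreated libraries with the first, and Fgf21 again passed the filter only through the libraries with TGF-β1. With M-MDSC supernatant, 2 of the 6 were higher and 3 lower, against 35.2% of all genes called (16.4% higher and 18.9% lower), and with G-MDSC supernatant 2 were higher and 3 lower, against 34.8% (16.4% higher and 18.4% lower). The rule of the study called 4 and 3 of them, against 6.98% and 6.8% of all genes. The log2 fold changes were 2.95 and 2.98 for Fgf21, 0.57 and 0.55 for Fgfr1, -1.20 and -1.19 for Met, and -1.07 and -1.16 for Fgf10, the M-MDSC value being given before the G-MDSC value. Fgfr2 was lower with log2 fold changes of -0.99 and -1.03 in the fit of 18761 genes, where 26.5% and 26.7% of all genes were called. Fgf2 had log2 fold changes of -1.61 and -1.51, which became 1.51 and 1.61 without untreated replicate 2 (adjusted p = 0.00357 and 0.00253, edgeR).

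The other genes of these pathways were described by list. None of the 17 other FGF ligand genes passed the filter, so Fgf7, Fgf10 and Fgf21 were the FGF ligand genes expressed above 1 FPKM in at least 3 libraries. None of the 7 genes for activators of HGF, their inhibitors and the related ligand and receptor pair Mst1 and Mst1r passed either. Of the other FGF receptors and Klotho co-receptors, 1 of 4 passed, Fgfrl1, a receptor without a kinase domain, and its level of 6.638 ± 0.300 FPKM untreated and 7.592 ± 1.36 FPKM with TGF-β1 gave no call in edgeR, DESeq2 or limma.

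Heparan sulfate, which FGFs and HGF bind, had more expressed genes. Of 21 genes for its core proteins, enzymes and FGF-binding proteins, 17 were tested, and TGF-β1 raised 7 and lowered 6, against 16.1% higher and 17.9% lower over all genes, with a median log2 fold change of 0.0553 against 0.000478 over all tested genes. Sdc3, a syndecan, rose by 1.13 (SE 0.066), and Ext1, which extends the heparan sulfate chain, rose by 0.97 (SE 0.031). Sdc4, another syndecan, went from 80.51 ± 1.74 FPKM untreated to 38.9 ± 1.12 with TGF-β1 (log2 fold change -0.99, SE 0.041). With M-MDSC supernatant 3 were lower than with TGF-β1 alone (1.95% of all genes) and 0 higher, namely Hs2st1 (-0.29) and Hs6st1 (-0.30), both sulfotransferases, and Sulf2 (-0.19), a sulfatase. With G-MDSC supernatant 3 were lower (2.46% of all genes) and 0 higher, namely Hs6st1 (-0.38), Sulf2 (-0.32) and Sdc2 (-0.18), all log2 fold changes in edgeR. In either direction, DESeq2 called 14 of the 17 with TGF-β1 against untreated and limma 15. Against TGF-β1 alone, DESeq2 called 5 with M-MDSC and 4 with G-MDSC supernatant, and limma 4 and 3.

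Of the 11 adaptor genes that link these receptors to RAS and other pathways, all were tested, and TGF-β1 raised 3 and lowered 0, against 16.1% higher and 17.9% lower over all genes, with a median log2 fold change of 0.193. They were Gab2 (0.80, SE 0.158), Frs3 (0.51, SE 0.111) and Sos1 (0.19, SE 0.058), as called by edgeR. In either direction, DESeq2 called 5 of the 11 and limma 3. Plcg1, a phospholipase recruited by FGF receptors, was the one called with supernatant, at -0.33 (SE 0.071) with M-MDSC and -0.41 (SE 0.071) with G-MDSC supernatant, where 1.95% and 2.46% of all genes were lower.

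Of 14 genes that respond to or restrain FGF-ERK signalling, 11 were tested, and TGF-β1 raised 6 and lowered 4, against 16.1% higher and 17.9% lower over all genes, with a median log2 fold change of 0.348. Dusp5, a nuclear ERK phosphatase, stood at 25.05 ± 0.850 FPKM untreated and rose to 48.54 ± 1.78 (log2 fold change 1.01, SE 0.044). Egr1, an immediate early gene, went from 46.78 ± 1.85 to 26 ± 0.144 FPKM (-0.79, SE 0.055), and the feedback inhibitor Spry4 changed by -0.42 (SE 0.072). The members thus moved in both directions. With either supernatant against TGF-β1 alone, 0 of the 11 were called by edgeR (4.78% and 5.56% of all genes), 5 passed at an unadjusted p-value under 0.05 in each (16.7% and 17.2% of all genes), DESeq2 called 1 with M-MDSC and 0 with G-MDSC supernatant, and limma called 0.

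**Figure D4:**
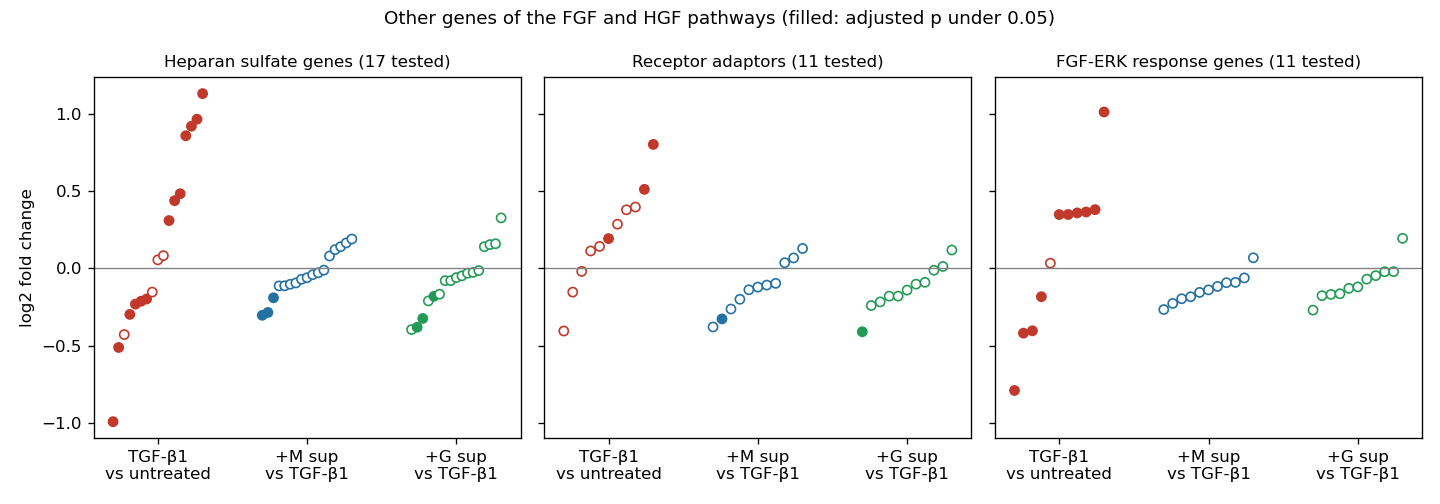
Log2 fold changes from edgeR for the tested genes of 3 lists, with a point for each gene ordered by value within a comparison. Filled points mark an adjusted p-value under 0.05. Filled points lie on both sides of 0 for the heparan sulfate and FGF-ERK genes in the comparison of TGF-β1 with untreated MSCs, and the few filled points of the supernatant comparisons lie below 0.

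Genes with the most similar pattern were found by Pearson's correlation of log2(FPKM + 1) over the 12 libraries, which share treatments, so that any gene changed by TGF-β1 can score high. For Fgf7 these were Cxcl5 (r = 0.989), a chemokine, Serpine2 (0.987), a protease inhibitor, and Osmr (0.985), the oncostatin M receptor. For Fgf21 they were Rfxank (0.982), Gadd45a (0.979), a stress-responsive gene, and Ndrg1 (0.978). For Fgf10 they were Ap3s1 (0.988), Aff3 (0.986) and Kcnj2 (0.985). For Met they were Sptbn1 (0.994), Thsd7a (0.992) and Als2cl (0.991), and for Fgfr1 they were Npr3 (0.989), C1galt1 (0.985) and Pmepa1 (0.985).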

How the data were processed

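Poly(A) mRNA of the 12 libraries was sequenced as paired reads from stranded libraries. The authors trimmed reads with cutadapt 1.9, aligned them to GRCm38 with HISAT2 2.0.4 and assembled transcripts with StringTie 1.3.4d. The deposited table holds raw counts per gene and library, and the FPKM values calculated by the authors, where 1e-04 stands for a count of 0. The tool that made the counts, and whether it used strand, are not given in the sources used here. Low counts pile up at multiples of 4, so counts divided by 4 were tried as an alternative.

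Counts were scaled by TMM and tested in edgeR 4.0.16 (R 4.3.3), all 4 groups sharing 1 model, two-sided tests and standard errors from the F statistic. DESeq2 1.42.0 and limma 3.58.1 on log2(FPKM + 1) or log2(FPKM + 0.1) were alternatives, as were median-ratio scaling, other filters on low values, only the compared groups, a replicate block, the study's rule for calls (fold above 2 or below 0.5 with an unadjusted p under 0.05) and leaving out each library in turn. The fit of 18761 genes used edgeR's filterByExpr. The genes named are the 10 growth factor and receptor genes, at most 3 called genes of each pathway list in the first comparison and 3 in others, the 3 genes most like each called gene, markers of other cells, and Acta2, Col1a1 and Ccn2. Overlapping neighbours of Fgf2, Klb, Fgfrl1, Alb, Kap, Aqp1 and Lyz2 were chosen after their values were seen. The genes and lists were chosen with earlier results of these data known. The first comparison was tested on simulated data of 12016 genes: 80 of 100 genes changed by 1 on the log2 scale and 44 of 100 changed by 0.5 were called, with 2 false calls. This was under the 90 first asked for. The missed genes of the larger change had a median dispersion of 0.0823, against 0.0109 for those called, and acceptance was then based on bias and interval coverage (95.5%), a choice made after that result was seen. Changes of these sizes can therefore be missed. Figures were drawn with Python 3.11.15 and matplotlib 3.10.9.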

Additional observations from a re-analysis of the deposited data

How the results depend on the processing

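The 5 calls of TGF-β1 against untreated MSCs numbered 4 to 6 over all other settings and 5 whichever library was left out. With only the compared groups in the fit and under the study's rule for calls, 0 genes were called for M-MDSC supernatant against TGF-β1 alone, and 0 to 1 with a library left out (0 without TGF-β1 replicate 2, TGF-β1/M-MDSC replicate 2 or replicate 3). For G-MDSC supernatant against TGF-β1 alone the study's rule called 0, and leaving out a library gave 1 to 2, the second being Met without TGF-β1/G-MDSC replicate 3 (adjusted p = 0.0468, edgeR). Between the supernatants DESeq2 and limma on log2(FPKM + 1) each called 1, and leaving out a library gave 0 to 1 (1 without TGF-β1 replicate 1, Fgf7 at an adjusted p of 0.0475). For G-MDSC supernatant against untreated MSCs the study's rule called 3.

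Signs turned only for differences that edgeR did not call with all 12 libraries. Among them, Fgf2 against untreated MSCs was called in the opposite direction without untreated replicate 2. Met between the supernatants became 0.000337 with limma on log2(FPKM + 0.1). Fgf18 with M-MDSC supernatant against untreated MSCs became 0.038 with a replicate block and 0.025 with counts divided by 4. With each library left out in turn, log2 fold changes spanned these ranges. Against untreated MSCs, TGF-β1 gave -0.15 to 0.049 for Hgf, -1.93 to 1.72 for Fgf2 and -0.95 to 0.51 for Fgf18. M-MDSC supernatant gave -2.14 to 1.51 for Fgf2, -0.67 to 0.90 for Fgf18 and -0.080 to 0.35 for Fgfr3, and G-MDSC supernatant -2.04 to 1.61 for Fgf2. Against TGF-β1 alone, M-MDSC supernatant gave -0.39 to 0.15 for Fgf2 and -0.19 to 0.75 for Fgf18, and G-MDSC supernatant -0.16 to 0.054 for Hgf, -0.29 to 0.25 for Fgf2 and -0.46 to 0.23 for Fgfr3. Between the supernatants the ranges were -0.13 to 0.031 for Hgf, -0.094 to 0.15 for Met, -0.29 to 0.15 for Fgf21, -0.0037 to 0.041 for Fgfr1 and -0.041 to 0.16 for Fgfr2. Untreated replicate 2, with 4611 Fgf2 counts against 201 and 165, was the only library whose removal turned the sign of Fgf2 against untreated MSCs. For the other turned signs the cause was not tested.

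The replicate block changed no call among the 6 tested genes, and libraries with the same number did not deviate together (mean r of -0.00025 over 18 pairs, 0.00014 over 36 pairs with other numbers). Settings for the 4 genes outside the main filter, other than filterByExpr and the fit without a filter, were added after seeing the data. Fgf18 and Fgfr3 had at most 37 and 150 counts in a library, and the part of depth in their errors was not tested.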
